A study of Mus musculus with 2 samples.

Results

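The genes Ddx58, Ifih1, Dhx58, Zbp1, Eif2ak2 and Adar, which encode cytosolic sensors of RNA and of Z-form nucleic acids, or the enzyme that edits their ligands, were followed across the cell classes of mouse bone marrow. They are 6 of the 31053 genes counted. They were chosen by symbol as sensors and editors that also respond to interferon, with results of these libraries already known, so their levels are a description and carry no test. The marrow came from C57BL/6 mice of 6 months with the disease label atherosclerosis. One library had the genotype Apoe(-/-) Itgb3(-/-), called the null-labelled library here, and the other had Apoe(-/-) Itgb3(+/+), called the control-labelled library. Both genotypes lack Apoe, which encodes apolipoprotein E, so no library with intact Apoe enters any comparison. Itgb3 encodes integrin beta 3. The labels give neither how many animals were pooled nor which exons were deleted.

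With 1 library per genotype there was no replicate, and each difference below is between 2 libraries and not between 2 genotypes. Intervals are exact 95% intervals that cover counting error only. Levels are given as CPM, the UMIs (unique molecular identifiers, 1 per captured transcript) of a gene in every 1000000 UMIs of the same cells. The cells kept were 2903 in the null-labelled library (33499181 UMIs, median 9311 per cell) and 8595 in the control-labelled one (59016542 UMIs, median 4808 per cell). A barcode sequence was shared by kept cells of both libraries in 6 cases, and 11 barcodes were shared before filtering. Itgb3 itself was at 7.43 CPM in the null-labelled library (249 UMIs) and at 23.6 CPM in the control-labelled library (1391 UMIs), and Apoe was at 62.5 CPM and 99.5 CPM. Counts at the 3′ end can lie outside a deleted part, so these values do not check the genotypes. Cell classes were rebuilt from marker genes and are called by the class whose markers they carry ("neutrophil-like" and so on). The clusters were nearly all made of 1 library (125 of 128 sub-clusters held at least 90% of their cells from 1 library), so a class of the 2 libraries was matched by its markers only. In every class compared, all listed markers of the class lay above the library's own level in both libraries. The classes were named from these same markers, so this does not check the match.

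Cells use these proteins to recognise nucleic acids that should not be in the cytosol. RIG-I (Ddx58) and MDA5 (Ifih1) are helicases that bind double-stranded RNA and signal through the mitochondrial adaptor MAVS to type I interferon, and LGP2 (Dhx58) lacks their signalling domains and tunes both. ZBP1 binds Z-form DNA and RNA and can start necroptosis through RIPK3 and MLKL. PKR (Eif2ak2) phosphorylates the translation factor eIF2 alpha when it binds double-stranded RNA. ADAR1 (Adar) converts adenosine to inosine in double-stranded RNA and thereby keeps the cell's own transcripts from triggering MDA5, PKR and ZBP1. All of these genes are known targets of interferon signalling.

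The promoter windows are shown because interferon is known to act on such genes through the interferon-stimulated response element, bound by the transcription factor complex ISGF3. RefSeq windows from 250 bases before to 50 bases after a transcription start (GRCm38.p6) were at hand for 4 of the 6 genes: Ddx58, Ifih1, Eif2ak2 and Adar, the last with 3 starts. The core GAAANNGAAA, searched on both strands, occurred in 1 place in the windows of Ddx58, Ifih1 and Eif2ak2, and in none of the Adar windows. Of all 32851 promoter windows of that length, 3.44% held this core. The shorter core GAAANNGAA, which lies inside every GAAANNGAAA, was in 8.56% of all windows and also occurred in 2 places in the window of the most downstream Adar start. Each line below shows 30 bases around a match, 5′ to 3′ on the strand that carries it, with the core in capitals.
Ddx58 (chr4:40239804-40239833, plus strand, opposite to the gene): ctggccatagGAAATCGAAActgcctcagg
Ifih1 (chr2:62646206-62646235, minus strand, that of the gene): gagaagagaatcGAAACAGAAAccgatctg
Eif2ak2 (chr17:78882535-78882564, minus strand, that of the gene): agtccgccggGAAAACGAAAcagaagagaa
Adar, at the most downstream start (chr3:89730738-89730767, plus strand, that of the gene): ttttcaaggaaacGAAAGTGAActctgggg
The 4 cores shown began after the annotated start, at base 3 for Ddx58, 33 for Ifih1, 19 for Eif2ak2 and 34 for Adar. Further matches to the shorter core, not shown, lay before the start at base -249 in that Adar window and at base -112 in that of Ifih1, and at base 25 in that of Eif2ak2. TTCNNNGAA, the core of the gamma-activated site, was in 8.30% of all windows, in that of Eif2ak2 at base -178 and in that of the most downstream Adar start at base 23. These matches are letters in a window, and no binding was measured.

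Over all cells, every one of the 6 genes was higher in the null-labelled library, and the sizes were far apart. Zbp1 was 24.3-fold higher (22.5 to 26.3), Dhx58 7.42-fold (6.74 to 8.17), Ifih1 6.83-fold (6.30 to 7.40), Ddx58 3.75-fold (3.50 to 4.03), Eif2ak2 2.21-fold (2.08 to 2.35) and Adar 1.99-fold (1.84 to 2.14). Thus 5 of 6 were at least 2-fold higher, where 8.49% of the 12997 genes with 30 or more UMIs were. The choice of the genes used this contrast, so nothing is read from that count. None of the 6 was 2-fold lower in any class compared, against a background of 18.2% of genes over all cells and between 12.0% and 36.9% in the classes. Summed over the 6 genes, the level was 620 CPM in the null-labelled library (20774 UMIs) and 106 CPM in the control-labelled library (6269 UMIs), a ratio of 5.84 (5.68 to 6.01).

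Class by class, 6 of 6 genes were at least 2-fold higher in neutrophil lineage-like cells (background 10.4%), in their immature stage (9.46%) and in B precursor-like cells (6.90%). In erythroid-like cells 4 of 6 were so (7.40%), where Eif2ak2 and Adar were not, though with TMM scaling, which moves every ratio of that class up, they were at 2.74 and 2.03 and all 6 were counted. With hemoglobin left out of the denominator Eif2ak2 was at 143 and 59.8 CPM, past 2-fold, and Adar at 57.2 and 32.2 CPM, below it. In T-like cells 3 of the 5 genes with enough UMIs were 2-fold higher (9.03%), and in mature B-like cells 3 of 5 (7.62%), with Dhx58 and Ifih1 respectively under 30 UMIs. The median log2 ratio of the tested members was 2.34 over all cells, beside -0.24 for all genes. It was 3.41 beside -0.69 in erythroid-like, 1.92 beside -0.11 in immature neutrophil-like, 2.13 beside -0.14 in B precursor-like, 1.06 beside -0.09 in T-like and 1.04 beside -0.06 in mature B-like cells. The neutrophil lineage is not matched in stage between the libraries, since the 1444 mature neutrophil-like cells were all from the control-labelled library and 145 neutrophil-like cells without a stage were all from the null-labelled one. The immature stage is therefore used below, with 487 and 1460 cells, though its own match in stage between the libraries was not tested. The cluster that held the most cells of a class differed between the 2 libraries: clusters 4 and 2 for immature neutrophil-like, 7 and 3 for erythroid-like, 10 and 1 for B precursor-like, 16 and 9 for mature B-like and 24 and 21 for T-like cells. It held between 33.0% and 100% of the cells of its class and library.

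**Figure D1:**
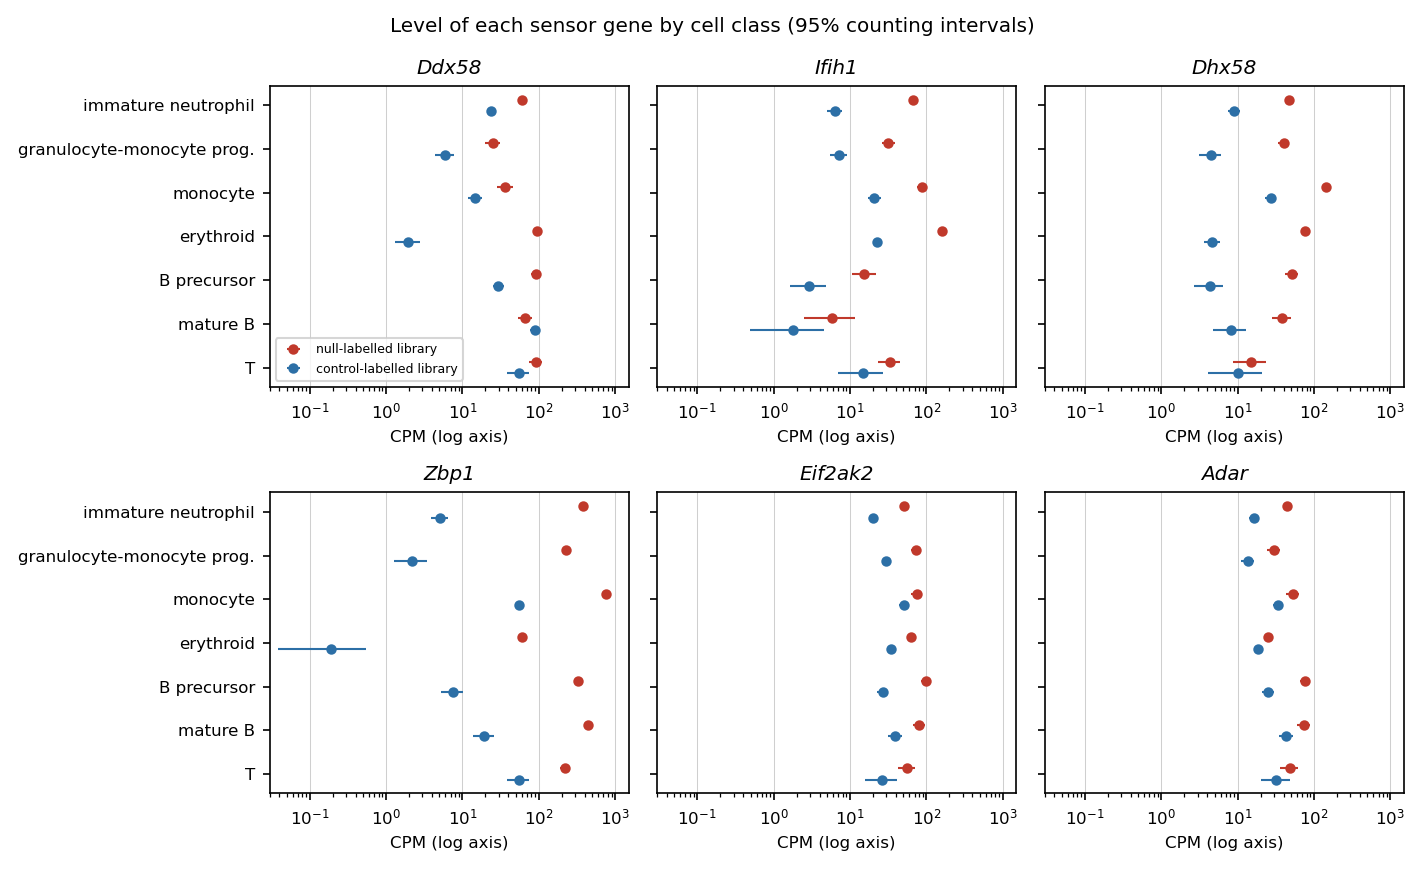
CPM of each gene (log axis) in 7 cell classes of the null-labelled (red) and control-labelled (blue) library, with exact Poisson 95% intervals. Zbp1 shows the widest gap in each class, and Ddx58 crosses over in mature B-like cells.

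Ddx58 (ENSMUSG00000040296, chromosome 4 from 40203773 to 40239828, minus strand, mm10, GENCODE vM21), which encodes RIG-I, differed most between the libraries where the control-labelled library had least of it. In erythroid-like cells it was at 95.4 CPM in the null-labelled library (1036 UMIs in 969 cells) and at 1.95 CPM in the control-labelled library (31 UMIs in 2073 cells), 48.9-fold higher (34.2 to 72.3). Erythroid-like cells were thus among the higher classes for RIG-I mRNA in one library and the lowest class with any UMI in the other. With hemoglobin left out of their denominator they were at 217 CPM (204 to 231) and 3.35 CPM (2.28 to 4.76). The first value was above that of every other class of its library over all UMIs. Its interval overlapped that of macrophage-like cells (53.3 to 273, 7 UMIs). In immature neutrophil-like cells Ddx58 was at 61.1 CPM and 23.4 CPM, 2.61-fold higher (2.24 to 3.04). In B precursor-like cells the levels were 91.0 CPM and 29.6 CPM, 3.07-fold higher (2.47 to 3.83). T-like cells held 91.7 CPM and 54.4 CPM, a ratio of 1.69 (1.15 to 2.52).

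Mature B-like cells were the class with the highest Ddx58 level of the control-labelled library, 89.0 CPM against 65.9 CPM in the null-labelled library, a ratio of 0.741 (0.571 to 0.955). This ratio depended on which cells were called mature B-like. The null-labelled class consisted of a sub-cluster of 76 cells at 152 CPM (113 to 199) and one of 158 cells at 34.8 CPM (24.2 to 48.3), whose intervals do not overlap. The sub-cluster of 158 cells was led by Cd74, Igkc and H2-Aa and carried Ly6a among its top genes. Control-labelled mature B-like sub-clusters with 20 or more cells ranged from 50.3 to 127.5 CPM. With the doublets kept the class had 76 null-labelled cells and the ratio was 1.73 (1.25 to 2.35), with the sensor and pathway genes allowed in the clustering it had 77 and the ratio was 1.74 (1.27 to 2.36), and with classes taken from each cell's own marker counts it had 294 and the ratio was 1.10 (0.891 to 1.36). The direction in mature B-like cells thus changed with the class definition.

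Ifih1 (ENSMUSG00000026896, chromosome 2 from 62595798 to 62646255, minus strand), which encodes MDA5, had its highest levels in erythroid-like and myeloid classes in both libraries. In the null-labelled library its level in erythroid-like cells, 160 CPM (152 to 167), was the top of the order, followed by plasmacytoid dendritic-like cells at 124 CPM (83.0 to 178, 22 cells), from which it did not differ beyond counting error. In the control-labelled library the order was macrophage-like cells at 53.9 CPM (27.8 to 94.1, 65 cells), then erythroid-like cells at 22.9 CPM and monocyte-like cells at 20.9 CPM, the last pair not differing beyond counting error. With hemoglobin left out of their denominator, erythroid-like cells held 363 CPM (346 to 381) and 39.4 CPM (35.4 to 43.6). These intervals lay above those over all UMIs of plasmacytoid dendritic-like cells in the null-labelled library and of monocyte-like cells (17.3 to 25.1) in the control-labelled one. Over all UMIs, the ratio was 6.97 (6.22 to 7.82) in erythroid-like cells, 10.5 (8.27 to 13.6) in immature neutrophil-like cells and 2.26 (1.10 to 5.08) in T-like cells. B-lineage cells held little of it in either library. In mature B-like cells it was at 5.86 CPM (8 UMIs) and 1.81 CPM (4 UMIs), and in B precursor-like cells at 15.4 CPM (33 UMIs) and 2.94 CPM (15 UMIs).

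These low B-cell levels were set against an upper bound for free RNA. If all hemoglobin UMIs of a non-erythroid class were free RNA, the same share of the library's profile would give at most 3.29 CPM of Ifih1 in null-labelled mature B-like cells and 7.0 CPM in control-labelled ones, or 56.2% and 388% of the observed levels. For the other 5 genes the same bound was 2.17% to 6.37% of the level in null-labelled mature B-like cells, and in control-labelled ones 11.9% for Ddx58, 26.9% for Adar, 32.6% for Zbp1, 43.4% for Eif2ak2 and 58.5% for Dhx58. In immature neutrophil-like cells it was 3.65% to 6.89% in the null-labelled library over all 6 genes and 13% to 35.0% in the control-labelled library. Subtracting such a bound would thus lower the control-labelled levels by a larger share than the null-labelled ones in both classes. The bound rests on summed hemoglobin, to which a few hemoglobin-rich cells can add much. In control-labelled mature B-like cells that sum was 74838 CPM, while the median cell held 0.287% hemoglobin. A bound above the observed level, as for Ifih1 there, cannot be the true amount. The amount of free RNA itself was not measured.

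Dhx58 (ENSMUSG00000017830, chromosome 11 from 100694884 to 100704271, minus strand), which encodes LGP2, had its highest CPM in monocyte-like cells in both libraries, 144 CPM (127 to 162, 269 UMIs in 89 cells) and 27.1 CPM (23.0 to 31.9, 149 UMIs in 577 cells), a ratio of 5.31 (4.33 to 6.53). Macrophage-like cells, next at 114 CPM (6 UMIs) and 22.4 CPM (5 UMIs), did not differ from them beyond counting error. In erythroid-like cells it was at 75.4 CPM and 4.66 CPM, 16.2-fold higher (12.7 to 20.8). With hemoglobin left out of their denominator these cells held 171 CPM (160 to 184) and 8.01 CPM (6.29 to 10.1). The null-labelled value was then above that of monocyte-like cells over all UMIs, with overlapping intervals. In B precursor-like cells Dhx58 was at 51.4 CPM and 4.31 CPM, 11.9-fold higher (7.48 to 19.8), and in immature neutrophil-like cells at 46.8 CPM and 9.01 CPM, 5.2-fold higher (4.18 to 6.52). T-like cells held 17 and 7 UMIs, too few to rank (ratio 1.44, 0.569 to 4.11). An antisense gene, Dhx58os, overlaps its 3′ end on the other strand and had 0 UMIs in both libraries, which allows up to 3 UMIs per library.

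Zbp1 (ENSMUSG00000027514, chromosome 2 from 173206612 to 173218923, minus strand) had the largest ratio of the 6 genes in each of the classes compared. In immature neutrophil-like cells it was at 378 CPM in the null-labelled library (2613 UMIs) and 5.08 CPM in the control-labelled library (62 UMIs), 74.4-fold higher (57.8 to 97.3). Over the whole neutrophil lineage Zbp1 was 34.0-fold higher (29.5 to 39.5), and control-labelled mature neutrophil-like cells held 34.5 CPM of it. In B precursor-like cells it was at 328 CPM and 7.45 CPM, 44.0-fold higher (31.7 to 62.7), and in mature B-like cells at 447 CPM and 19.0 CPM, 23.5-fold higher (17.2 to 33.0). T-like cells, which had more of it in the control-labelled library (54.4 CPM), held 218 CPM in the null-labelled one, 4.01-fold higher (2.83 to 5.83). Monocyte-like cells had the highest null-labelled level of the named classes, 750 CPM (711 to 790, 1401 UMIs), against 54.6 CPM, 13.7-fold higher (12.1 to 15.6). Neutrophil-like cells without a stage, at 727 CPM (673 to 784), did not differ from them beyond counting error. The order of classes was not the same in the 2 libraries: natural killer-like cells, first in the control-labelled library at 89.1 CPM (59.7 to 128, 78 cells) though with an interval overlapping that of monocyte-like cells, were next to last in the null-labelled library at 73.9 CPM (47.8 to 109, 35 cells). Their Zbp1 ratio was 0.829 (0.466 to 1.47). Summed over the 6 genes it was 0.761 (0.528 to 1.09, 57 and 72 UMIs). No rise beyond counting error was thus seen in this small class.

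Erythroid-like cells had the lowest Zbp1 CPM in both libraries, 59.5 CPM (55.0 to 64.2, 646 UMIs) and 0.189 CPM (3 UMIs), a ratio of 315 (107 to 1531). In the null-labelled library they did not differ from natural killer-like cells beyond counting error. With hemoglobin left out of their denominator the levels were 135 and 0.325 CPM, and the null-labelled one was then above that of natural killer-like cells. That ratio rests on 3 control-labelled UMIs, and it was 44.9 with the doublets kept and 73 with classes taken from each cell's marker counts.

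Eif2ak2 (ENSMUSG00000024079, chromosome 17 from 78852564 to 78882573, minus strand), which encodes PKR, had a narrow range of ratios in the classes with at least 100 cells in each library. It was 3.68-fold higher in B precursor-like cells (99.0 and 26.9 CPM, interval 2.96 to 4.60), 2.59-fold in immature neutrophil-like cells (51.8 and 19.98 CPM, 2.20 to 3.06), 2.08-fold in T-like cells (55.0 and 26.5 CPM, 1.22 to 3.73), 2.05-fold in mature B-like cells (80.6 and 39.3 CPM, 1.53 to 2.75) and 1.80-fold in erythroid-like cells (62.8 and 34.8 CPM, 1.61 to 2.02). Plasmacytoid dendritic-like cells stood first in the null-labelled library at 265 CPM (203 to 340, 62 UMIs in 22 cells), above the next class beyond counting error. In the control-labelled library they held 43.9 CPM (24.0 to 73.7, 14 UMIs in 61 cells) and did not differ beyond counting error from monocyte-like cells at 50.3 CPM. The ratio was 6.03 (3.34 to 11.7) in plasmacytoid dendritic-like cells and 1.48 (1.20 to 1.82) in monocyte-like cells. Both lay outside the range of the larger classes.

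Adar (ENSMUSG00000027951, chromosome 3 from 89715022 to 89753446, plus strand) had the smallest ratio over all cells. It was at 77.0 CPM and 25.1 CPM in B precursor-like cells, 3.07-fold higher (2.42 to 3.90), and at 44.8 CPM and 16.3 CPM in immature neutrophil-like cells, 2.75-fold higher (2.29 to 3.30). In mature B-like cells the ratio was 1.69 (1.26 to 2.26) and in T-like cells 1.48 (0.891 to 2.56). Erythroid-like cells had 25.1 CPM and 18.8 CPM, 1.34-fold higher (1.13 to 1.58). The gene makes a long, interferon-inducible and a short, constitutive form from different starts, and counts at the 3′ end do not tell them apart. Chrnb2, a receptor subunit gene on the opposite strand, overlaps its 3′ end and had 28 and 18 UMIs, against 1437 and 1275 of Adar.

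**Figure D2:**
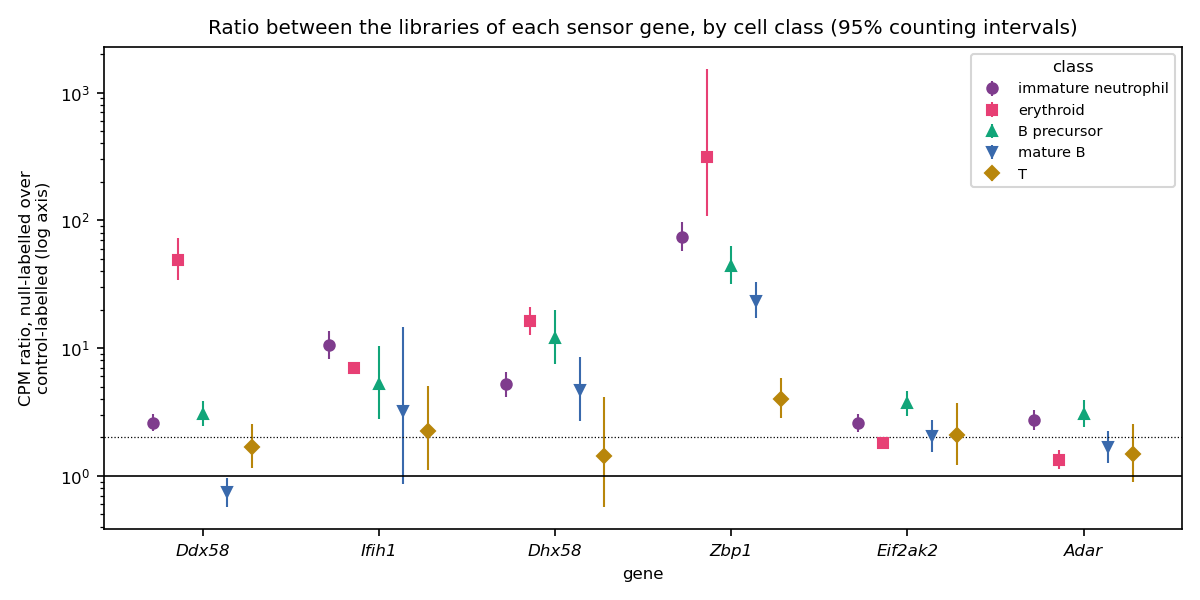
CPM ratio of the null-labelled over the control-labelled library (log axis) of each gene in 5 classes, with exact 95% counting intervals. The solid line marks a ratio of 1 and the dotted line 2, and Zbp1 and Ddx58 in erythroid-like cells lie at 315 and 48.9 while all Eif2ak2 and Adar points lie between 1.34 and 3.68.

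The make-up of the sensor transcripts differed with the library. A UMI tags one end of a transcript, so no length scaling was applied. Genes differ in how well they are captured, so comparisons between libraries or classes are made for the same gene. Where several genes of a class are listed, their shares are of captured UMIs and do not rank the transcripts. Zbp1 gave 45.0% of the UMIs of the 6 genes in the null-labelled library and 10.8% in the control-labelled one. In monocyte-like cells its share was 65.4% and 27.1%, in mature B-like cells 62.9% and 9.46%, and in immature neutrophil-like cells 58.2% and 6.33%. The lowest Zbp1 shares of the null-labelled library were 12.4% in erythroid-like cells, 18.2% in plasmacytoid dendritic-like cells and 27.6% in stem and progenitor-like cells. Ifih1 gave 33.4% and Ddx58 19.96% in those erythroid-like cells, and Eif2ak2 gave 35.2% in those plasmacytoid dendritic-like cells. In control-labelled erythroid-like cells Eif2ak2 gave 41.8%, Ifih1 27.5% and Adar 22.5%, while Ddx58 gave 2.34%.

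**Figure D3:**
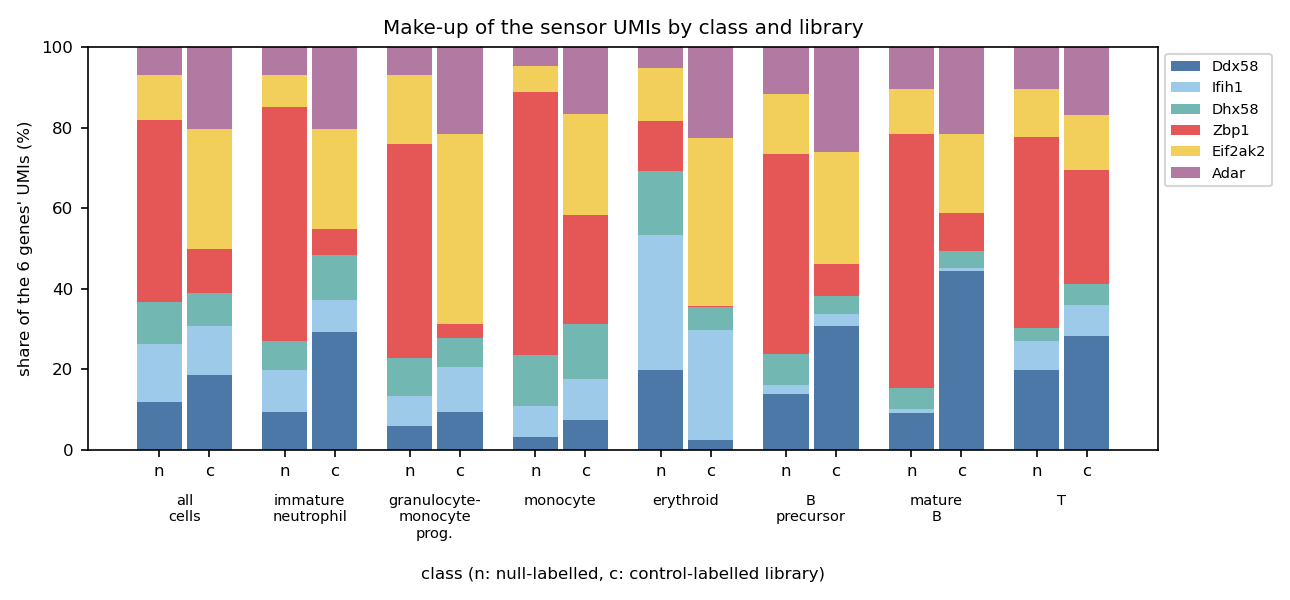
Share (%) of the UMIs of the 6 genes that each gene gave, over all cells and in 7 classes, in the null-labelled (n) and control-labelled (c) library. Zbp1 (red) takes between 47.3% and 65.4% of the null-labelled bars of the named classes shown apart from erythroid-like cells, where it takes 12.4%.

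Single cells were then examined, since a class level can come from all of its cells or from a few. With each cell thinned to 1000 UMIs, 44.1% of 2834 null-labelled cells (42.3 to 46.0) and 11.9% of 8402 control-labelled cells (11.2 to 12.6) held a UMI of any of the 6 genes. Unthinned, the shares were 87.7% and 40.4%. Thinning left out 69 of the null-labelled cells as too shallow. For Zbp1 alone the thinned shares were 23.0% (21.4 to 24.6) and 1.71% (1.45 to 2.01). At full depth 116 null-labelled cells (3.996%) and 1 control-labelled cell held UMIs of all 6 genes, but the depth per cell differed between the libraries.

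In null-labelled immature neutrophil-like cells the shares of cells with a UMI lay near those that a common level predicts. If every immature neutrophil-like cell had held the class level of Zbp1, 95.3% of the cells would have had a UMI at their depth, and 94.3% had one. For the 6 genes in that class the observed share lay within 3 percentage points of the predicted one. Some genes of other classes fell short of their prediction. Ddx58 had 37.1% observed and 49.6% predicted in monocyte-like cells, and 40.4% and 47.2% in T-like cells. The widest gap was that of Zbp1 in erythroid-like cells. A common level predicted a UMI in 44.8% of the 969 cells, and 13% (126 cells, 10.9 to 15.3) had one, with 5.13 UMIs per such cell and up to 23 in a cell. The 10% of erythroid-like cells with most Zbp1 held 95.5% of the Zbp1 UMIs of the class. The other genes of that class also had fewer cells with a UMI than predicted, with 40.7% observed and 59.9% predicted for Ddx58 and 59.1% and 76.3% for Ifih1. With hemoglobin left out of each cell's depth the predicted shares were 34.0% for Zbp1, 44.8% for Ddx58 and 57.8% for Ifih1. Over the class, Zbp1 then stayed far below its prediction, while Ddx58 and Ifih1 lay within 5 percentage points of theirs. That nearness did not hold in each group of similar hemoglobin share, predicted from the group's own level. Above 60% hemoglobin Ddx58 had 28.3% observed and 44.4% predicted, and Ifih1 50.6% and 68.3%. At 20 to 60% Ddx58 had 63.6% and 77.9%, and Ifih1 76.9% and 85.8%. Under 20% Ddx58 had 53.8% and 58.2%, and Ifih1 63.5% and 65.0%.

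**Figure D4:**
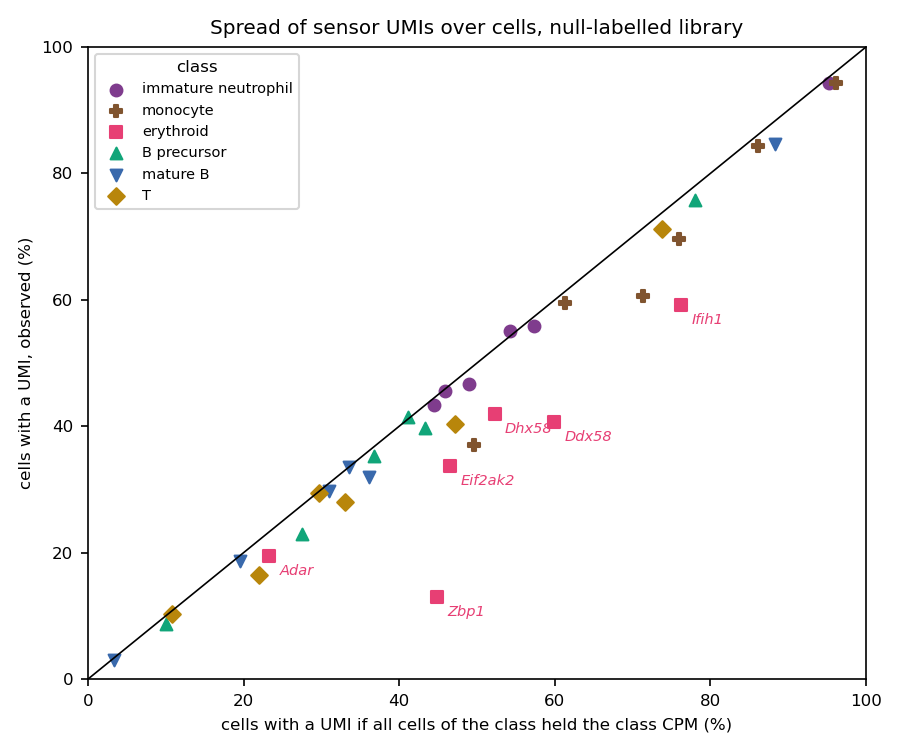
Observed share of cells with a UMI (%, vertical) against the share predicted if all cells of a class held the class CPM (%, horizontal), for the 6 genes in 6 classes of the null-labelled library. Points on the diagonal have as many cells with a UMI as a common level predicts, and Zbp1 in erythroid-like cells lies farthest below it, at 13% against 44.8%.

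The erythroid-like cells with Zbp1 were less hemoglobinised than the rest of their class. In the null-labelled library the 843 cells without a Zbp1 UMI had a median hemoglobin share of 72.2% of their UMIs, the 75 cells with 1 to 4 Zbp1 UMIs 46.6%, and the 51 cells with 5 or more 26.1%. The last had a median depth of 19162 UMIs, against 9863 in the cells without. Their summed markers of stem and progenitor cells (a list with Kit and Gata2, which erythroid progenitors also express) were at 119 CPM (102 to 138), against 1.2 CPM (0.574 to 2.20) in the cells without Zbp1. Summed macrophage markers were at 0.674 CPM (1 UMI) and 4.79 CPM, monocyte markers at 8.77 and 12.6 CPM, and immature neutrophil markers at 70.1 and 83.7 CPM, so none of these 3 marker sums was higher in the cells with 5 or more Zbp1 UMIs. B precursor markers were at 2.70 CPM (4 UMIs) and 1.2 CPM (10 UMIs) and mature B markers at 2.02 CPM (3 UMIs) and 1.44 CPM (12 UMIs), higher in those cells but with overlapping intervals. Ddx58 was at 133.5 and 87.5 CPM, Eif2ak2 at 113 and 53.4 CPM and Adar at 47.9 and 20.7 CPM in these cells and in the cells without Zbp1. Dhx58 was at 95.1 and 70.7 CPM. Ifih1 differed little, at 173 CPM (153 to 196) and 160 CPM (151 to 169). With hemoglobin left out of the denominator the order turned: Ddx58 was at 153 and 261 CPM, Eif2ak2 at 129 and 159 CPM and Adar at 54.7 and 61.7 CPM. Ifih1 was then at 198 and 477 CPM and Dhx58 at 109 and 211 CPM. The intervals of Eif2ak2 and of Adar then overlapped between these groups of cells, and those of Ddx58, Ifih1 and Dhx58 did not. The cells were split by Zbp1 itself, so these are descriptions, and the part of depth in the split was not tested.

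Along the hemoglobin share, which rises as erythroid cells mature, the courses of the genes depended on whether hemoglobin UMIs were counted in the total. Of all UMIs, Zbp1 in the null-labelled library was at 134 CPM in cells with under 20% hemoglobin (104 cells), 71.8 CPM at 20 to 60% (264 cells) and 24.3 CPM above 60% (601 cells). The share of cells with a Zbp1 UMI was 41.3% in the first band and 6.66% in the last. In the control-labelled library Zbp1 had 2, 1 and 0 UMIs in the 3 bands, and 0 of 977 cells in the last allows a share of up to 0.307%. Zbp1 in the null-labelled cells above 60% (142 UMIs) was at least 34.1-fold higher by the exact limit of the ratio, and 42.5-fold higher against a floor of 3 UMIs over the control-labelled group. Of all UMIs, Ddx58, Ifih1 and Dhx58 were instead highest in the middle band, at 183, 256 and 135 CPM, against 65.6, 91.2 and 76.9 CPM below 20% and 66.2, 142 and 47.0 CPM above 60%. In the control-labelled library the same genes were also highest in the middle band, at 4.15, 37.4 and 8.90 CPM. Adar was 2.40-fold higher below 20% (1.79 to 3.21) and did not differ beyond counting error at 20 to 60% (ratio 0.995, 0.746 to 1.32). The band below 20% may hold earlier cells in the null-labelled library, which was not tested. A null-labelled sub-cluster of 36 cells (median 36875 UMIs), led by Car1 and Car2, was named erythroid. A sub-cluster of 75 control-labelled cells and 1 null-labelled cell (median 36249 UMIs), also with Car1 and Car2 among its top genes, stayed unnamed. Above 60% the denominator is mostly hemoglobin in both libraries (median 80.6% and 81.9%). With hemoglobin UMIs left out of the denominator, an alternative chosen after seeing the data, null-labelled Zbp1 was at 141 CPM (126 to 158), 125 CPM (108 to 144) and 138 CPM (116 to 163) in the 3 bands, so its level did not differ between them beyond counting error. Ifih1 was then at 95.8, 447 and 806 CPM and highest above 60%. Ddx58 was at 68.9, 320 and 376 CPM and Dhx58 at 80.8, 236 and 268 CPM, where the intervals of the last pair of bands overlapped for both genes. In the control-labelled library Ddx58, Ifih1 and Dhx58 kept their highest value in the middle band, at 6.90, 62.1 and 14.8 CPM. Ddx58 there rests on 8, 21 and 2 UMIs in the bands. Its middle interval (4.27 to 10.5) overlapped that above 60% (0.233 to 6.94).

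**Figure D5:**
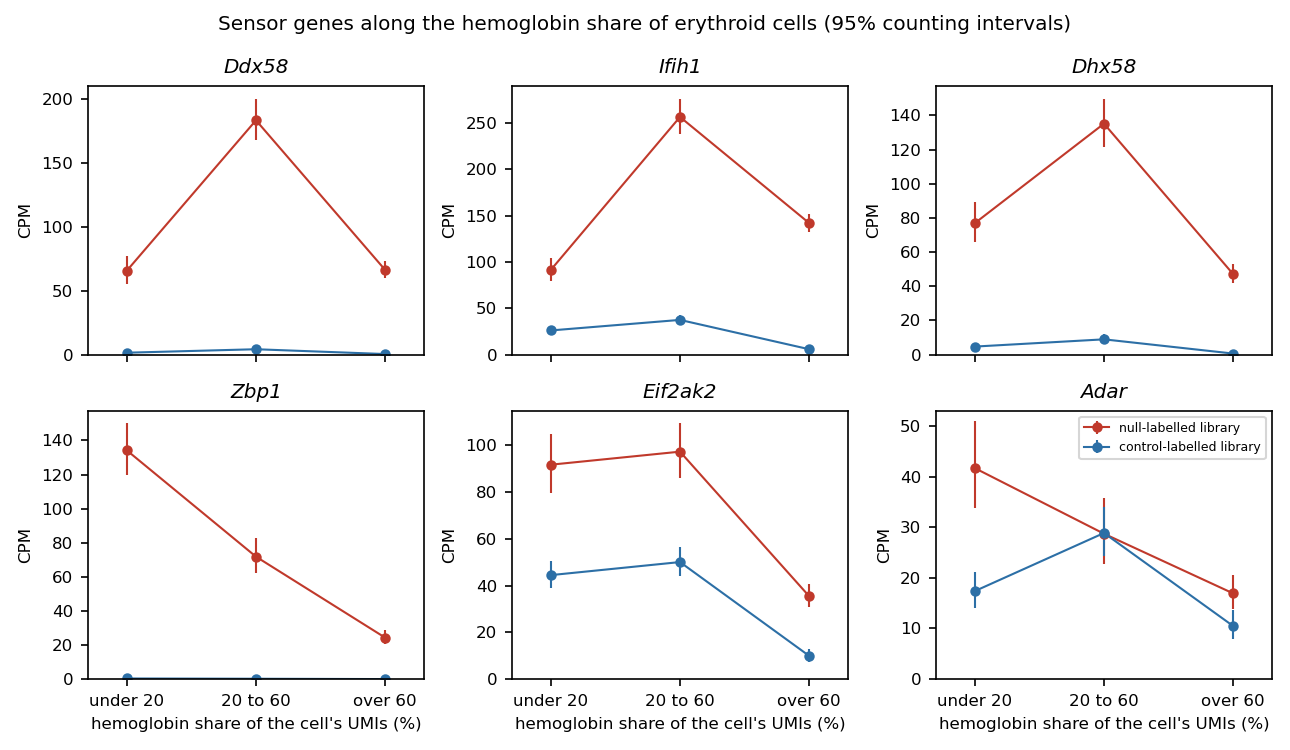
CPM of each gene in erythroid-like cells grouped by the hemoglobin share of their UMIs (%, horizontal), in the null-labelled (red) and control-labelled (blue) library, with exact Poisson 95% intervals. Zbp1 is at 134 CPM in the first band and 24.3 CPM in the last in the null-labelled library, Ddx58, Ifih1 and Dhx58 have their highest CPM in the middle band, and the Adar points of the 2 libraries meet there.

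Genes that work with the sensors did not move as a block. The counts in their lists are to be read beside the 8.49% of all genes that were 2-fold higher over all cells and the 18.2% that were 2-fold lower, and with so few genes in a list none is called particular to it. The first list held 11 signalling adaptors, kinases and transcription factors that act downstream of nucleic acid sensors, Tmem173, Irf3 and Irf7 among them. Of these, 3 were 2-fold higher over all cells in the null-labelled library, 1 was lower and 7 lay between (median log2 ratio 0.26). Irf7, the interferon-inducible transcription factor, was at 362 and 22.9 CPM, 15.8-fold higher, and Traf6, a ubiquitin ligase, was 2.41-fold higher. Mavs, the adaptor shared by RIG-I and MDA5, was 2.11-fold lower, at 4.42 CPM (148 UMIs) and 9.32 CPM (550 UMIs). In erythroid-like cells, where Ddx58 and Ifih1 were far higher, Mavs was at 4.60 and 15.4 CPM, a ratio of 0.30. In that class 36.9% of all genes were 2-fold lower and 7.40% 2-fold higher, with a median log2 ratio of -0.69. The low Mavs value is therefore not particular to it. Among 15 regulators of the RIG-I-like receptors 3 were higher and 1 lower over all cells. Nlrc5, the MHC class I activator, was 10.8-fold and Rnf125, a ubiquitin ligase for RIG-I, 2.99-fold higher. Prkra, the PKR activator PACT, was 3.11-fold lower. Ppp1ca, a phosphatase subunit with the highest level of that list, had a ratio of 0.675.

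Of 10 cell death partners of ZBP1, 2 were higher and 2 lower. Mlkl, the effector of necroptosis, was at 19.6 and 8.15 CPM, 2.41-fold higher, and in erythroid-like cells at 19.4 and 1.70 CPM, 11.4-fold higher (7.63 to 17.8). Casp1, the inflammasome protease, was 2.04-fold higher, Fadd, a death receptor adaptor, 2.46-fold lower, and Pycard, the inflammasome adaptor with the highest level of the list, had a ratio of 0.943. Ripk3, the kinase that ZBP1 binds, was at 15.1 and 14.2 CPM, a ratio of 1.07, and in erythroid-like cells at 1.01 and 1.2 CPM (11 and 19 UMIs). Of 11 genes of the PKR and integrated stress response list, 2 were higher and 1 lower. Trib3 was 4.16-fold and Ddit3, which encodes CHOP, 2.01-fold higher, while Chac1, another target of that response, was 5.25-fold lower (8 and 74 UMIs). Ppp1r15a, which encodes the eIF2 alpha phosphatase subunit GADD34, had a ratio of 1.92, and Atf4, the central transcription factor of the response, of 0.837.

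Of 5 other RNA editors and deaminases with enough UMIs, Apobec3 was 2.27-fold higher, at 331 and 146 CPM. Apobec1 had a ratio of 1.2 and Adat1 of 0.728. Among 11 cytosolic DNA sensors and nucleases 4 were higher and 1 lower: Ifi208 by 9.71-fold, Ifi204 by 5.69-fold and the deoxynucleotide hydrolase Samhd1 by 3.87-fold higher, and Rnaseh2c, a subunit of RNase H2, 3.25-fold lower. Of 5 endosomal receptor genes 2 were higher, Tlr3 by 7.30-fold (58 and 14 UMIs) and Tlr7 by 4.35-fold, and Tlr8 was 3.1-fold lower (15 and 82 UMIs). Unc93b1, their chaperone, had a ratio of 1.29. In the interferon and ISGF3 list 5 of 11 were higher and none lower (median log2 ratio 0.86). Stat2, a part of ISGF3, was 10.3-fold higher, Irf9, another part of it, had a ratio of 1.81, and Tyk2, a receptor kinase, was 1.72-fold lower. Ifnb1, which encodes interferon beta, had 15 UMIs in the null-labelled and 0 in the control-labelled library, which allows up to 3. Other DEAD and DEAH box helicases, 28 in all, served as a comparison by protein family: 1 was higher, Ddx60 by 2.51-fold, 2 were lower, with Ddx17 at 2.55-fold lower, and the median log2 ratio was -0.04. Ddx24 had a ratio of 1.83, and Ddx5, at 529 and 539 CPM the highest of the list, of 0.983.

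Genes with the most similar course were found from log2(CPM + 1) over 10 points, the 5 non-overlapping classes with at least 100 cells in each of the 2 libraries, among 9711 genes with 300 or more UMIs. The points of a library share its cells and depth, so the correlations are descriptions. Zbp1 was closest to Tap1 (Pearson r 0.97) and Gbp2 (0.95), and Ddx58 to the MHC class I gene H2-D1 (0.96), Sp110 (0.94) and Trim12a (0.93). Ifih1 was closest to Fcho2 (0.92), Ccrl2 (0.91) and Parp12 (0.91), and Dhx58 to Trafd1 (0.95), Rtp4 (0.94) and Irgm2 (0.94). Eif2ak2 was closest to Oasl1 (0.96), Parp9 (0.95) and Irgm1 (0.94), and Adar to Serpina3g (0.95), Lemd2 (0.95) and Emc7 (0.94). Among the members themselves r ranged from -0.06 for Ifih1 with Adar to 0.85 for Zbp1 with Adar. Ddx58 and Ifih1, the pair of MAVS-coupled receptors, had an r of 0.09.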

How the data were processed

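Bone marrow of 2 genotypes was profiled by 10x Genomics 3′ single-cell RNA-seq, 1 library each. The deposited values are raw UMI counts per gene and barcode, with Cell Ranger 3.0, Seurat and mm10 named in the submitters' processing notes, and software version 3.1.0 per the file headers. The sources used here name no filter before deposit. Of 4281 null-labelled and 12764 control-labelled barcodes, those with under 200 genes or over 10% mitochondrial UMIs (1307 and 3479) and the top Scrublet ranks (0.8% per 1000 cells, 71 and 690) were left out here. Cells of both libraries were clustered together (scanpy 1.11.5, Leiden from leidenalg 0.10.2, 2000 variable genes, 30 components, 15 neighbours) without the 6 members and the pathway lists, and sub-clusters were named from marker lists.

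UMIs were summed per class and library. Ratios of CPM have exact conditional intervals, shares Clopper-Pearson intervals, and no test was run. Genes with 30 or more UMIs over both libraries and a ratio of 2 or more were counted as higher, with edgeR 4.0.16 TMM scaling as an alternative. The code was tested on simulated data. The members and lists were chosen with earlier results of these data known. Of each list the text names the highest member, the 2 largest ratios and the smallest. Mavs and Mlkl in erythroid-like cells, Ripk3, Atf4, Irf9 and Ifnb1 were named after their values were seen. A gene that this rule and the likeness rule name is not reported here.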

Additional observations from a re-analysis of the deposited data

Results flagged for a closer look

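Ddx58 differed in direction between cell classes. Its CPM ratio of the null-labelled over the control-labelled library was 0.741 in mature B-like cells, but 48.9 in erythroid-like cells. It was 3.07 in B precursor-like cells, 2.22 in neutrophil lineage-like cells (2.61 in their immature stage) and 1.69 in T-like cells. With 1 library per genotype, the difference was not tested. The value in mature B-like cells moved above 1 under 3 other definitions of that class (1.73, 1.74 and 1.10), and it stayed below 1, at 0.920, when only the 21 null-labelled and 114 control-labelled cells with at most 5% mitochondrial UMIs were used.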

How the results depend on the processing

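The summed level of the 6 genes over all cells, 5.84-fold higher in the null-labelled library, was 6.12 with cells over 5% mitochondrial UMIs left out, 5.40 with no cell filter and no doublet removal, 4.84 as a mean over cells, 6.68 with TMM factors, 5.05 with each cell thinned to 1000 UMIs and 6.2 with hemoglobin left out of the denominator. TMM factors moved every log2 ratio by 0.19 over all cells and by 0.60 in erythroid-like cells. In mature B-like cells 3 genes were 2-fold higher, and 1 at the 5% mitochondrial limit. Of the endosomal receptors 2 were 2-fold higher, and 1 among genes with 100 or more UMIs. All other counts of 2-fold genes stayed within 1.5 times of the main count. Over the alternatives Ddx58 in erythroid-like cells ranged from 33.3 to 94.6 and Zbp1 there from 44.9 to 478. Ddx58 in B precursor-like cells was 1.89 when thinned and 6.51 at the 5% limit, and Dhx58 in mature B-like cells 1.15 at that limit. Ifih1 in T-like cells was 9.37 when thinned. In erythroid-like cells the courses along the hemoglobin share and the order between cells with and without Zbp1 changed when hemoglobin was left out of the denominator. Their place among the null-labelled classes then also changed for Ddx58, Dhx58 and Zbp1. For Ifih1 their interval no longer overlapped that of the nearest class below. The causes were not tested. Depth limits the classes with under 100 cells and control-labelled Zbp1 in erythroid-like cells (3 UMIs). No paired analysis was possible because there was 1 library per genotype.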
